A study of Saccharomyces cerevisiae with 12 samples.

Results

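The response of rad30Δ budding yeast cells to 1 hour of galactose was measured as 3 libraries collected after galactose addition against 3 libraries collected before it. These are 6 of the 12 RNA-seq libraries of the series, chosen by their strain and treatment labels and not by any measured value. Of 7123 genes in the count table, the 6490 with at least 10 reads over the 12 libraries were tested. Cells were W303 derivatives lacking RAD30, grown in YEP medium with 2% raffinose and arrested in G2/M phase with 80 µg/ml benomyl for 3 hours. The libraries after DSB induction came from such cells given 2% galactose for 1 hour, which switched on the HO endonuclease from a galactose promoter (PGAL-HO), and the libraries before it came from arrested cells without galactose. The 6 other libraries were WT cells treated in the same 2 ways, 3 with galactose and 3 without, and they are used here for the estimate of spread and for a comparison of strains.

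HO cuts the MAT locus on chromosome III and so makes a DNA double-strand break (DSB). Galactose also acts on its own, because the sensor Gal3 binds it and releases the activator Gal4 from its inhibitor Gal80, after which Gal4 turns on the genes that take up and use galactose. RAD30 encodes DNA polymerase η, which copies past damaged bases. No library with galactose and without HO was analysed here, so the sugar, the nuclease, the break and 1 hour more in benomyl cannot be told apart in any result below. The study lists strains that also carry an ectopic SMC1 copy under a galactose promoter, SMC1 being a subunit of the cohesin ring, and an HO cassette placed at ADE3. The listed strains with this ectopic copy also carry a temperature-sensitive allele of SMC1. SMC1 rose after DSB induction (log2 fold change 4.70 in rad30Δ cells), and any effect of this rise cannot be told apart from these factors either. The sources used here do not name the strains behind each library, and in bulk RNA fewer cells that express a gene and less RNA per cell cannot be told apart.

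RAD30 (YDR419W) had 0 reads in all 6 rad30Δ libraries, where 3 reads would be 0.399 to 0.584 CPM, and 38.6 to 52.4 CPM in the 6 WT libraries. CPM are reads scaled to a common library total of 1000000 after TMM scaling, a correction for differences in RNA composition. The rad30Δ libraries held 5881783 to 7289514 reads and the WT libraries 5442935 to 7078155. The replicates after DSB induction in rad30Δ cells lay 31.22 to 42.69 apart in Euclidean distance of log2 CPM, against 23.29 to 27.47 in rad30Δ cells before it and 21.72 to 24.2 within the 2 WT groups, and the smallest distance between any 2 groups was 33.25. Replicate 3 after DSB induction stood furthest apart: its TMM factor was 0.873 against 0.971 to 1.047 in the other 11 libraries, and transcripts of the mitochondrial genome took 0.207% of its reads, against 0.0216% and 0.0328% in replicates 1 and 2. The total counts of calls are therefore also given without it, and its own values are described at the end.

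Mating-type markers placed the 2 strains apart. Haploid yeast are of a or α type, and each expresses its own pheromone and the receptor for the other's pheromone. The summed level of α-specific genes was 2650, 2719 and 3575 CPM in rad30Δ cells after DSB induction and 6383, 5885 and 6414 CPM before it, against 180.3 to 234.3 CPM in the WT libraries. The a-specific genes summed to 82.38 to 126.9 CPM in the rad30Δ libraries and 1329 to 1763 CPM in the WT libraries. STE2, the receptor of a cells, lay at 13.4 to 19.9 CPM in rad30Δ and 376 to 596 CPM in WT libraries. The rad30Δ libraries thus carried α-cell transcripts and the WT libraries a-cell transcripts. Loss of RAD30 and mating type cannot be told apart in any difference between the strains.

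Markers of the cell cycle were read in both rad30Δ groups. CLB2, the main mitotic cyclin, had 99.9, 125 and 82.4 CPM after DSB induction and 141, 149 and 118 CPM before it, a log2 fold change of -0.40 that did not pass (adjusted p = 0.117, edgeR), though it did with a replicate block (0.0308), in which equal numbers pair the libraries. CLB6, an S phase cyclin, stayed between 4 and 7 CPM in these 6 libraries. Of 15 genes of the G1 and S phases, 0 passed the test in either direction in the fit without a replicate block, and the G1 cyclin gene CLN2 passed with the block (log2 fold change 0.27, adjusted p = 0.0359, edgeR) and without replicate 3 after DSB induction (0.0177).

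The sequences that Gal4 recognises are shown first, for genes among the largest rises that hold them within 500 bases of their start and for the inhibitor gene GAL80. The letters CGG and CCG with any 11 bases between them, which read the same on both strands, were searched in the R64 genome (the assembly called sacCer3) and matches were allowed to overlap. Each line below runs 5′ to 3′ on the coding strand of the gene named first in it, and capitals mark the match. GAL1 and GAL10 are divergent and share one stretch, as do RGL1 and HTC1, and in GAL2 the capitals at the end hold a pair of overlapping matches.
GAL1 and GAL10, chrII:278558-278631, plus strand: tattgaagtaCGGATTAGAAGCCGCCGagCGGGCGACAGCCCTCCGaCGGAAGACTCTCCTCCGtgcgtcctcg
GAL7, chrII:275693-275729, minus strand: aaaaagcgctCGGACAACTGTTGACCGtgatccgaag
GAL2, chrXII:289786-289910, plus strand: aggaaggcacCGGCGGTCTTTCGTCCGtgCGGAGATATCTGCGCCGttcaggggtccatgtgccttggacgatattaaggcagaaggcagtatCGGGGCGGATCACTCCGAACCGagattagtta
GAL3, chrIV:463136-463172, plus strand: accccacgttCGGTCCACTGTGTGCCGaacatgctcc
GAL80, chrXIII:171412-171448, plus strand: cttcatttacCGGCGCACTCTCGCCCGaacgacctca
GCY1, chrXV:550735-550771, plus strand: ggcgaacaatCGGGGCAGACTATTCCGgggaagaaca
SDD1, chrV:46109-46145, minus strand: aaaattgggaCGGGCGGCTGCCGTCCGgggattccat
RGL1 and HTC1, chrXVI:426125-426161, plus strand: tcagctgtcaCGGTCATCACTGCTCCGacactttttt

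Between 250 bases before and 50 after the start of a gene, as the R64 annotation gives it, these letters occurred in 1.36% of 5870 genes, in 5.11% of the genes that rose and in 0 of 168 that fell, in 3 of the 14 largest rises that have a position (21.4%) and in 4 of 12 genes on a list of the galactose regulon (33.3%). With 500 bases before the start, a window chosen after seeing the data, the shares were 2.98%, 9.79% and 1.79%. In that longer window 10 of 12 genes of that list held a match (83.3%), and so did 9 of those 14 largest rises (64.3%) and 1 of the 15 largest falls (6.67%). A match is a description of letters and not a measured binding site.

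In rad30Δ cells 411 of the 6490 genes (6.33%) passed an adjusted p of 0.05, 239 of them higher after DSB induction (3.68%) and 172 lower (2.65%). The counts in gene lists below stand beside these shares. The p-values came from the quasi-likelihood test of edgeR, adjusted by the method of Benjamini and Hochberg over all 6490 genes. The median change over all tested genes was 0.0043 on the log2 scale. It was 0.58 over the genes that rose and -0.46 over those that fell. Rises reached further: 62 of them exceeded a 2-fold change, against 11 of the falls. The 3 libraries after and the 3 before DSB induction did not overlap for 238 of the 239 rises and all 172 falls, and over all tested genes the groups were apart in 11.3% upward and 10.5% downward. The calls numbered 321 higher and 305 lower without replicate 3 after DSB induction, with 217 and 148 of them shared with those above. With the rad30Δ libraries fitted alone, only 76 of the rises and 32 of the falls still passed. A replicate block kept 218 and 149 of them. Many calls named below did not pass with the rad30Δ libraries alone, among them GIT1, MTH1, FUM1, QCR10, LEU1 and FAS2. Scaling by library totals alone turned the split to 159 rises and 401 falls, and it shifted the median of all genes to -0.10.

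**Figure D1:**
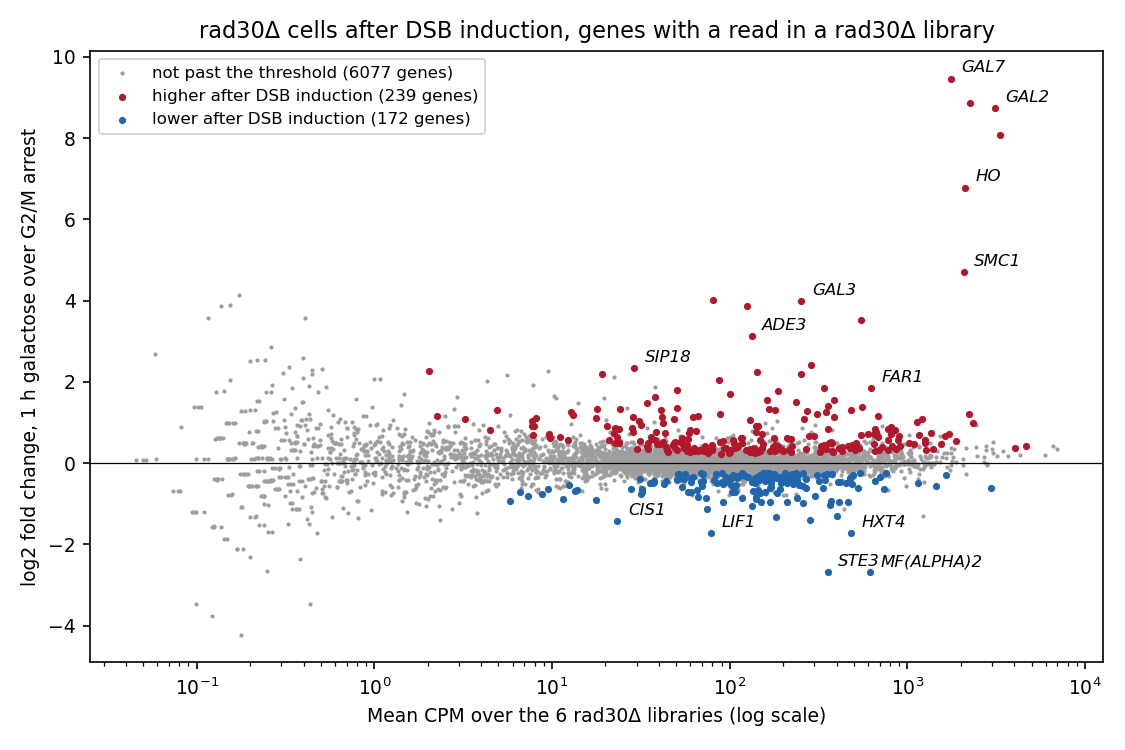
Log2 fold change in rad30Δ cells, after over before DSB induction (y axis), against mean CPM over the 6 rad30Δ libraries on a log scale (x axis), 1 point a gene, with the 239 genes that rose and the 172 that fell in colour. GAL7, GAL10, GAL2, GAL1 and HO lie above a log2 change of 6. The lowest of the genes that fell, MF(ALPHA)2 and STE3, lie near -2.7, and genes that did not pass reach -4.22.

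Enzymes and the transporter of galactose use rose more than any other gene. GAL7 (YBR018C, chrII:274427-275527), the uridylyltransferase of the pathway, had 3543, 2898 and 4082 CPM after DSB induction and 3.47, 2.79 and 8.78 CPM before it, a log2 fold change of 9.46 ± 0.37 (SE, n = 3 libraries in each group, adjusted p = 1.76e-09, edgeR) or 706-fold. GAL10 (YBR019C, chrII:276253-278352), the epimerase, had 5039, 3996 and 4402 CPM after and 10.9, 5.98 and 12.2 CPM before. GAL1 (YBR020W, chrII:279021-280607), the galactokinase, had 7402, 6387 and 6116 CPM after and 25.1, 19.8 and 28.9 CPM before. These 3 genes are neighbours on chromosome II, and in each of them the lowest library after DSB induction was over 100 times the highest before it. GAL2 (YLR081W, chrXII:290212-291936), the galactose permease, had 6348, 5631 and 6593 CPM after and 15.8, 11.96 and 16.2 CPM before, with a log2 fold change of 8.73 ± 0.22 (adjusted p = 2.37e-11, edgeR). The log2 fold changes of GAL10 and GAL1 were 8.87 and 8.08.

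The regulators of the pathway moved less. GAL3 (YDR009W), the sensor, had 602, 425 and 404 CPM after DSB induction and 29.98, 29.5 and 30.8 CPM before it, a log2 fold change of 3.99 ± 0.14 (adjusted p = 7.7e-10, edgeR). GAL80, the inhibitor, had 492, 412 and 334 CPM after and 94.8, 86.9 and 86.9 CPM before, a log2 fold change of 2.21. In both genes replicate 1 was the highest and replicate 3 the lowest after DSB induction. GAL4, the activator, had 56.2, 51.6 and 46.7 CPM after and 52.1, 59.0 and 58.1 CPM before, and its change of -0.13 did not pass (adjusted p = 0.429, edgeR). Other members of the list that rose were GCY1 (log2 fold change 3.53), a glycerol dehydrogenase, FUR4 (1.33), the uracil permease next to GAL1, PGM2 (1.22), a phosphoglucomutase, PCL10 (1.13), a cyclin of the kinase Pho85, and MTH1 (0.52), a regulator of glucose transporter genes. In all 11 of the 12 genes on the list rose, 0 fell, and the list's median was 2.87 beside 0.0043 over all tested genes.

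HO, SMC1 and ADE3, the genes touched by the galactose-promoter constructs in the study's strain list, rose as well. HO (YDL227C) had 3693, 4201 and 4694 CPM after DSB induction and 35.7, 38.9 and 40.0 CPM before it, a log2 fold change of 6.78 ± 0.12 (adjusted p = 1.2e-12, edgeR). SMC1 had 4289, 4214 and 3474 CPM after and 147, 147 and 165 CPM before, a log2 fold change of 4.70 ± 0.11. ADE3, the cytoplasmic C1-tetrahydrofolate synthase, had 246, 233 and 240 CPM after and 26.8, 30.4 and 24.3 CPM before, a log2 fold change of 3.13 ± 0.09. Reads of a gene's own copy and of an added copy or cassette carry the same name in the table and were not separable. The searched letters were not in the 500 bases before HO, SMC1 or ADE3 in the reference genome, which does not hold the added cassettes.

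Several genes outside the textbook galactose pathway were among the 15 largest rises. SDD1 (YEL057C) had 309, 192 and 202 CPM after DSB induction and 14.7, 15.8 and 17.9 CPM before it, a log2 fold change of 3.86 ± 0.17 (adjusted p = 7.6e-09, edgeR). The divergent pair RGL1, a regulator of Rho1 signalling, and HTC1 (YPL067C) shared one match between their starts. RGL1 had 530, 486 and 432 CPM after and 95.0, 90.3 and 84.4 CPM before, a log2 fold change of 2.42. HTC1 had 264, 237 and 202 CPM after and 48.4, 50.6 and 50.05 CPM before, a log2 fold change of 2.24. In all 3 genes replicate 1 was the highest library after DSB induction. SIP18, a hydrophilin of dry and salt-stressed cells, was at 46.8, 43.1 and 55.7 CPM after and 10.9, 7.17 and 10.9 CPM before, a log2 fold change of 2.33, and no match lay in the 500 bases before it.

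**Figure D2:**
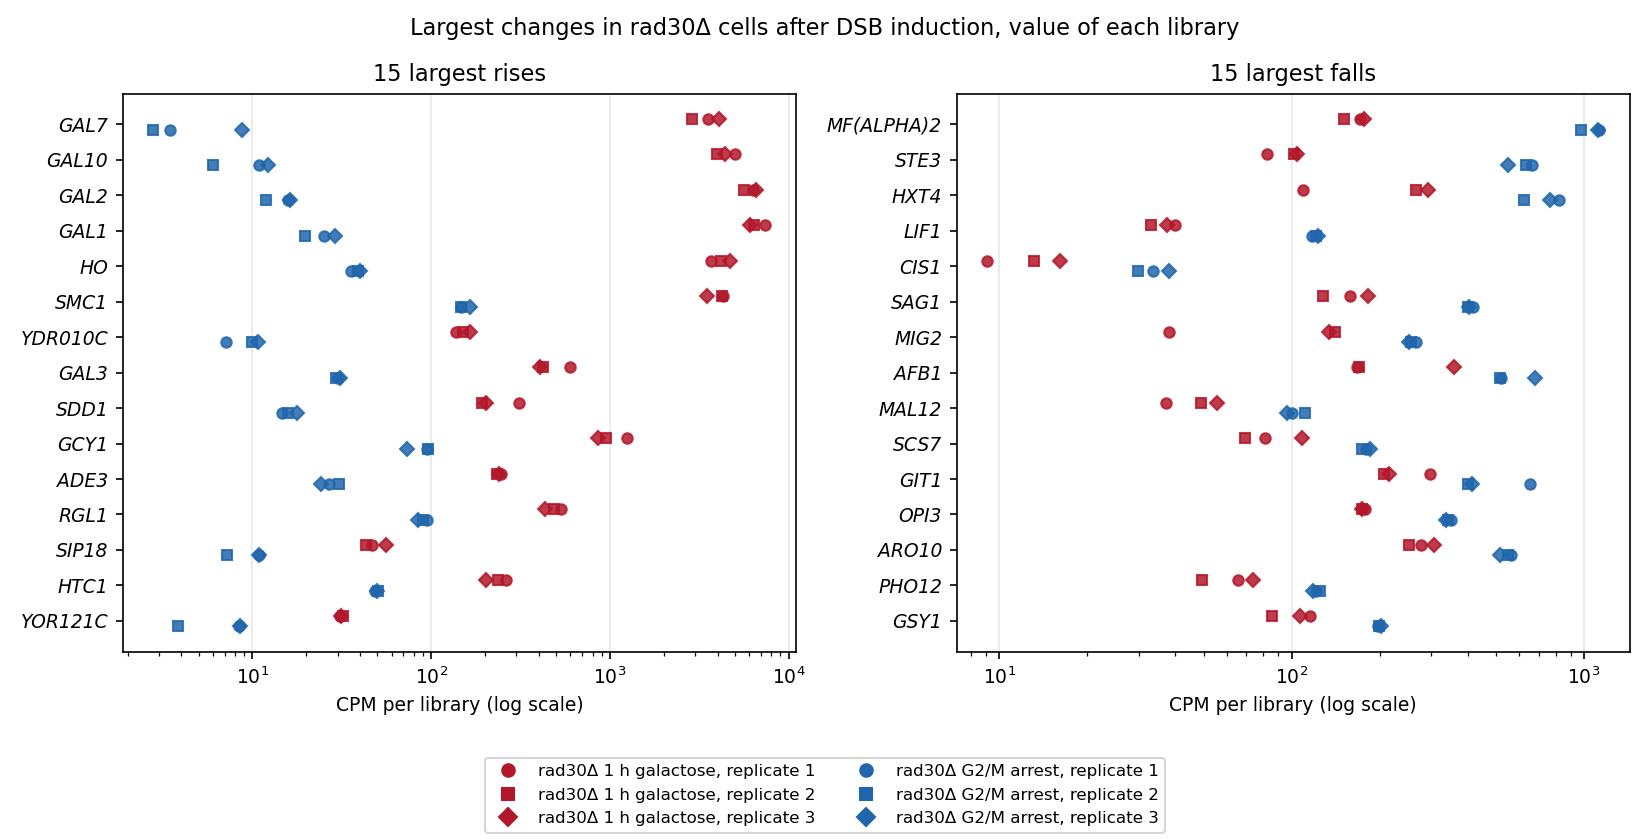
CPM on a log scale (x axis) in the 3 rad30Δ libraries after and the 3 before DSB induction for the 15 largest rises and the 15 largest falls (y axis), 1 marker a library. Genes were chosen so that the 2 groups do not overlap, and after DSB induction replicate 1 lies below the other 2 libraries in HXT4 and MIG2 while replicate 3 lies above them in AFB1.

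Some genes beside the largest rises moved too. Of 27 tested neighbours of the 15 largest rises, 7 were themselves among those rises, and of the other 20 neighbours 5 rose and 3 fell, with a median log2 fold change of 0.16. Of 30 tested neighbours of the 15 largest falls, 2 were themselves among those falls, and of the other 28 there were 0 rises and 1 fall, with a median of -0.0042. YDR010C, on the opposite strand and 54 bases from GAL3, had 138, 151 and 164 CPM after DSB induction and 7.10, 9.96 and 10.8 CPM before it, a log2 fold change of 4.01. YOR121C, for which the annotation used here gave no position, rose by 2.21 on the same scale. RIO1, a kinase of ribosome maturation that lies 867 bases from GCY1, rose by 0.91, EMP46, 961 bases from GAL2, by 0.88, and PAI3, an inhibitor of a vacuolar protease that lies 650 bases from SIP18, by 1.49. The neighbours that fell were SNQ2 (-0.51), a drug efflux pump, SRL2 (-0.49) and PFY1 (-0.26), which encodes profilin. The calls of SNQ2 (adjusted p = 0.0613 in edgeR without replicate 2 before DSB induction) and PFY1 (up to 0.138 with 1 library left out, in either strain) did not hold. The sources used here do not state a strand setting for counting, and reads of a gene and of a neighbour on the other strand were not separable.

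Heat shock genes had more rises than any other list, 18 in all. Of 26 chaperone genes on the list 18 rose and 0 fell, with a median log2 fold change of 0.62. HSP82 (YPL240C), an Hsp90 chaperone, had 978, 779 and 1090 CPM after DSB induction and 416, 422 and 437 CPM before it, a log2 fold change of 1.16 ± 0.10 (adjusted p = 1.26e-05, edgeR). HSP26, a small heat shock protein, had 119, 113 and 230 CPM after and 41.0, 36.9 and 63.0 CPM before, and SSA4, an inducible Hsp70, had 170, 206 and 354 CPM after and 69.1, 68.8 and 111 CPM before. The log2 fold changes of HSP26 and SSA4 were 1.71 and 1.55, and in both genes replicate 3 was the highest library of its group in each condition. Smaller rises were seen in SSE2 (0.91), a nucleotide exchange factor, and in the Hsp90 partners CPR6 (0.68) and STI1 (0.58). Relative to the mean of the rad30Δ libraries before DSB induction, the list's median stood at 0.520, 0.413 and 0.801 after it, so that the rise was seen in each of the 3 libraries and was largest in replicate 3. With both rad30Δ libraries numbered 3 left out, a setting added after seeing the data, 19 of the 26 rose, while 7 passed with the rad30Δ libraries fitted alone and 8 with these and a replicate block.

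The general stress list split. Of 27 genes 10 rose and 3 fell, with a median of 0.31. HSP12, a membrane-stabilising protein, had 823, 632 and 961 CPM after DSB induction and 355, 249 and 324 CPM before it, a log2 fold change of 1.38 ± 0.15 (adjusted p = 8.44e-05, edgeR). GRE1 (1.62), a hydrophilin, DDR2 (1.57), a stress protein, and YGP1 (1.01), a secreted glycoprotein, rose with it. The 3 members that fell were enzymes of glycogen: GSY1 (-0.95), a glycogen synthase, GPH1 (-0.94), glycogen phosphorylase, and GLC3 (-0.58), the branching enzyme. GSY1 had 116, 86.0 and 107 CPM after and 197, 199 and 202 CPM before, and the groups were well apart.

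FAR1 (YJL157C), the inhibitor through which pheromone arrests the cell cycle in G1, rose with little spread between replicates. It had 959, 975 and 1011 CPM after DSB induction and 285, 265 and 270 CPM before it, a log2 fold change of 1.84 ± 0.07 (adjusted p = 7.7e-10, edgeR). The 19 genes of pheromone signalling and of haploid cells did not move with it, since FAR1 was the only one that rose and 1 other member fell. That fall was lost in the fit with a replicate block, which called 0 members lower.

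Genes of sugar breakdown and respiration rose by small amounts. In glycolysis 7 of 18 genes rose and 0 fell, with a median of 0.42. TDH2, a glyceraldehyde-3-phosphate dehydrogenase, had 2878, 2625 and 3874 CPM after DSB induction and 1470, 1330 and 1239 CPM before it, a log2 fold change of 1.22 ± 0.14 (adjusted p = 0.000184, edgeR). PGK1 (0.74), phosphoglycerate kinase, and GPM1 (0.72), phosphoglycerate mutase, followed. TDH2 has close paralogs, and reads from shared stretches could be assigned to either copy. In the tricarboxylic acid cycle 3 of 15 rose and 0 fell, among them FUM1 (0.48), fumarase, and SDH1 (0.72), a subunit of succinate dehydrogenase, and 5 rose with a replicate block. Of 31 nuclear genes of the respiratory chain and ATP synthase 7 rose and 0 fell, for example QCR10 (0.42) of complex III and COX5A (0.41) of complex IV.

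These counts rested on single libraries more than those above, and SDH1 and COX5A no longer passed without replicate 2 or without replicate 3 before DSB induction (adjusted p up to 0.102 and 0.0613, edgeR). With both rad30Δ libraries numbered 3 left out, 4 genes of glycolysis and 2 of the respiratory chain rose. Without replicate 2 after DSB induction, which had the lowest median of glycolysis genes (0.125, against 0.482 in replicate 1 and 0.544 in replicate 3), 13 of glycolysis, 9 of the tricarboxylic acid cycle and 14 of the respiratory chain did.

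Other biosynthetic lists rose in part. In ergosterol synthesis 6 of 23 rose and 0 fell. ERG3, the C-5 sterol desaturase, had 1026, 1077 and 1188 CPM after DSB induction and 658, 738 and 676 CPM before it, a log2 fold change of 0.67 ± 0.08 (adjusted p = 0.000184, edgeR). ERG25 (0.84), the C-4 methyl oxidase, was at 1263 CPM in replicate 3 and at 641 and 642 CPM in replicates 1 and 2, and its adjusted p went up to 0.107 (edgeR) when 1 library before DSB induction was left out. Of 33 genes of amino acid synthesis 5 rose and 0 fell, led by LEU1 (0.63) of leucine synthesis, and 8 rose with a replicate block. Among 20 genes of nitrogen assimilation 2 rose and 4 fell. PUT1 (1.51), proline oxidase, and PUT4 (0.71), the proline permease, were the rises, and GAP1 (-0.71), the general amino acid permease, and MEP3 (-0.49), an ammonium permease, were among the falls. MEP3 no longer passed without replicate 1 or 2 before DSB induction (adjusted p up to 0.0824, edgeR).

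The largest falls were in genes of α cells. All 5 α-specific genes on the list fell. MF(ALPHA)2 (YGL089C, chrVII:344791-345153), a gene for the α-factor pheromone, had 172, 151 and 178 CPM after DSB induction and 1126, 974 and 1119 CPM before it, a log2 fold change of -2.69 ± 0.10 (adjusted p = 7.7e-10, edgeR). STE3 (YKL178C, chrXI:113215-114627), the receptor for a-factor, had 82.1, 102 and 104 CPM after and 663, 634 and 552 CPM before, a change of -2.68 ± 0.12. SAG1, the α-agglutinin of the cell surface, had 158, 128 and 182 CPM after and 417, 400 and 406 CPM before, a change of -1.39. Each of these 3 genes was lower in every library after DSB induction than in any before it, by more than 2-fold.

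The other α-specific genes fell less or less evenly. MF(ALPHA)1, the main gene for α-factor, had 2070, 2170 and 2751 CPM after DSB induction and 3657, 3363 and 3661 CPM before it, a log2 fold change of -0.61. AFB1, the a-factor barrier, had 168, 170 and 360 CPM after and 521, 515 and 677 CPM before, a change of -1.30, with replicate 3 high in both groups. With the rad30Δ libraries fitted alone, AFB1 (adjusted p = 0.0893, edgeR) and MF(ALPHA)1 (up to 0.0764, also with a replicate block) no longer passed. The 7 a-specific genes, at low levels in these libraries, had 0 that passed in either direction, with a median of 0.13. HMLALPHA1, whose sequence is shared with the α1 activator gene at MAT where HO cuts, held 0, 0 and 1 reads after DSB induction and 7, 4 and 5 reads before it, and it did not pass in the fit without a replicate block (adjusted p = 0.0607, edgeR), against 0.0391 without replicate 3 after DSB induction. The copies at MAT and HML cannot be told apart by most reads, so these few reads are uncertain.

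LIF1 (YGL090W, chrVII:343319-344584), a partner of DNA ligase IV in end joining, fell beside a pheromone gene. It had 39.8, 33.0 and 37.6 CPM after DSB induction and 118, 121 and 123 CPM before it, a log2 fold change of -1.71 ± 0.08 (adjusted p = 1.17e-08, edgeR). Its 3′ end lies 206 bases from that of MF(ALPHA)2 on the other strand, and reads of the pair were not separable by strand. It was the only gene of 23 on the list of DSB repair that passed in either direction.

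Single genes of hexose and maltose use fell, with replicates that lay far apart. HXT4, a hexose transporter, had 109, 267 and 292 CPM after DSB induction and 824, 621 and 765 CPM before it, a log2 fold change of -1.73 ± 0.30 (adjusted p = 0.00413, edgeR). MIG2, a repressor in glucose signalling, had 38.0, 140 and 135 CPM after and 266, 256 and 252 CPM before, a change of -1.31 (adjusted p = 0.0287, edgeR) that no longer passed when any 1 of the 3 libraries before DSB induction was left out (adjusted p up to 0.0797). HXT2, another hexose transporter, had 228, 1031 and 874 CPM after and 1877, 1789 and 1558 CPM before, and its change of -1.29 did not pass (adjusted p = 0.0603, edgeR), whereas it passed with a replicate block (0.0454) and without any 1 of the libraries after DSB induction (0.00258 to 0.0404). In all 3 genes replicate 1 after DSB induction was the lowest library. HXT5 (0.75), a transporter of slow-growing cells, rose, so the list of 12 hexose transporters and sensors had 1 rise and 1 fall, and 4 falls with a replicate block. The call of HXT5 was lost without replicate 1 or 2 before DSB induction (adjusted p up to 0.0668, edgeR). MAL12, a maltase, had 37.3, 48.8 and 55.5 CPM after and 100, 111 and 96.6 CPM before, a change of -1.13, and it was the only one of 10 maltose genes that passed, against 3 lower and 1 higher with a replicate block.

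Phosphate genes and phospholipid genes fell together with no member rising. Of 15 genes of phosphate starvation 8 fell, with a median of -0.35. GIT1, a glycerophosphoinositol permease, had 298, 206 and 215 CPM after DSB induction and 655, 402 and 415 CPM before it, a log2 fold change of -1.03 ± 0.18 (adjusted p = 0.00392, edgeR). PHO12 (-0.96) and PHO5 (-0.82), secreted acid phosphatases, and PHO89 (-0.63), a phosphate transporter, fell with it, although PHO12 has a near-identical copy in PHO11 and their split of reads is uncertain. Of 18 genes of inositol and phospholipid synthesis 7 fell, with a median of -0.26. OPI3, which makes phosphatidylcholine by methylation, had 179, 174 and 174 CPM after and 351, 343 and 338 CPM before, a change of -0.97 ± 0.06 (adjusted p = 2.94e-07, edgeR). The inositol transporter ITR1 (-0.95), the first methyltransferase CHO2 (-0.72) and phosphatidylserine synthase CHO1 (-0.62) were similar in that replicates lay close and the groups did not overlap.

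Fatty acid genes followed in the same direction, with 4 of 15 lower and 0 higher. SCS7 (-1.06), a hydroxylase of sphingolipid fatty acids, FAS2 (-0.49), the α subunit of fatty acid synthase, and ACC1 (-0.34), acetyl-CoA carboxylase, were among them. SAM2 (-0.95), which makes the methyl donor used by CHO2 and OPI3, and MET6 (-0.50), methionine synthase, were the 2 of 23 genes of sulfate and methionine use that fell in the fit without a replicate block, in which 0 rose. ACC1 and MET6 no longer passed without replicate 1 or 2 before DSB induction (adjusted p up to 0.0805 and 0.0804, edgeR). SAM2 had 152, 138 and 138 CPM after DSB induction and 291, 308 and 229 CPM before it. ARO10 (-0.96), a decarboxylase of amino acid breakdown, and CIS1 (-1.42) completed the larger falls outside these lists. CIS1 was a gene of low level, with 9.11, 13.2 and 16.2 CPM after and 33.6, 29.9 and 38.2 CPM before.

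Chromatin and mitotic genes fell by less than 1.5-fold. Of 10 histone genes 3 fell and 0 rose: HTA2 (-0.50), an H2A gene, HTB2 (-0.34), an H2B gene, and HHO1 (-0.30), the linker histone. HTA2 and HTB2 have close paralogs, so their share of reads is uncertain. Of 21 genes of the G2 and M phases 3 fell and 0 rose. CLB1, a mitotic cyclin, had 112, 126 and 100.8 CPM after DSB induction and 155, 157 and 150 CPM before it, a log2 fold change of -0.45 ± 0.08 (adjusted p = 0.00359, edgeR). CDC5, the polo kinase, had 170, 204 and 186 CPM after and 224, 222 and 244 CPM before, a change of -0.30 (adjusted p = 0.0432, edgeR). The groups did not overlap in either gene, but CDC5 lost its call when most single libraries were left out (adjusted p up to 0.137), and so did HHO1 (0.119) and HTB2 (0.0807) without replicate 1 or 2 before DSB induction. CLB1 kept its call when any 1 library was left out. It lost the call with the rad30Δ libraries fitted alone, with or without a replicate block (adjusted p up to 0.0818, edgeR).

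Ribosome biogenesis had medians of -0.456, -0.013 and -0.162 in replicates 1, 2 and 3 after DSB induction, relative to the libraries before it. Of 72 genes 3 fell (4.17%, beside 2.65% of all tested genes) and 0 rose, with a median of -0.21. The groups were apart downward for 19 of the 72, beside 10.5% of all tested genes. In WT cells 19 of the 72 fell, beside 6.29% of all tested genes, with a median of -0.265. NOG2, a GTPase of the large subunit, had 166, 248 and 216 CPM after DSB induction and 346, 282 and 299 CPM before it, a log2 fold change of -0.56 that did not pass without replicate 1 or 3 before DSB induction (adjusted p up to 0.0981, edgeR). Replicate 1 after DSB induction was the lowest of these libraries. Scaled by library totals alone 14 of the 72 fell, so the count depended on the scaling. The 138 cytosolic ribosomal protein genes had 2 falls (1.45%) and 0 rises.

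**Figure D3:**
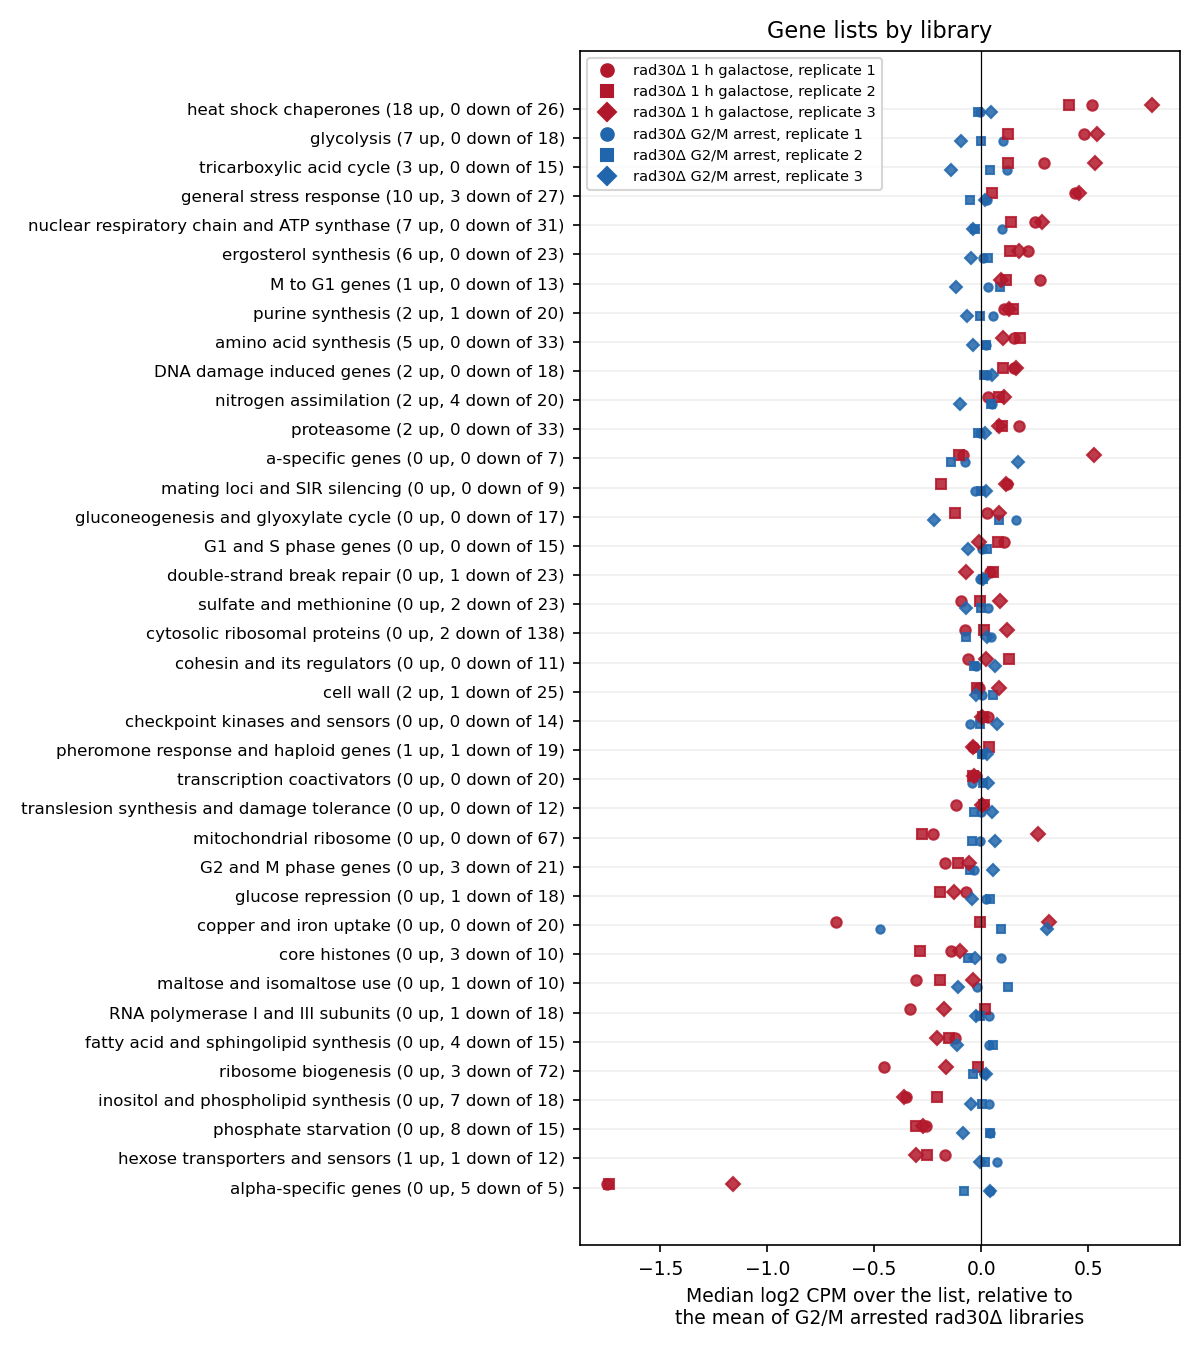
Median log2 CPM of each gene list (y axis) in the 3 rad30Δ libraries after and the 3 before DSB induction, relative to the mean of the libraries before it (x axis), with each list's counts of rises and falls beside its name (the galactose regulon, the genes under galactose promoters and the mitochondrial genome are left out). Heat shock and glycolysis lie to the right and phosphate, phospholipid and α-specific genes to the left in each of the 3 libraries after DSB induction, while the mitochondrial ribosome has replicate 3 on the other side of 0 from replicates 1 and 2.

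Genes of the DNA damage response changed little at this time. RNR3, a damage-induced subunit of ribonucleotide reductase, had 24.6, 24.4 and 25.9 CPM after DSB induction and 16.9, 15.3 and 18.3 CPM before it, a log2 fold change of 0.57 ± 0.12 (adjusted p = 0.0124, edgeR). PLM2 (0.47), a transcription factor of the damage response, was the other of 18 damage-induced genes that rose, and 0 fell. Without replicate 2 before DSB induction neither passed, and PLM2 also did not without replicate 3 before it (adjusted p up to 0.0576 for RNR3 and 0.0653 for PLM2, edgeR). RNR4, the small subunit, had 633, 547 and 1521 CPM after and 751, 643 and 799 CPM before and did not pass (adjusted p = 0.595, edgeR). Only replicate 3 stood above the libraries before DSB induction. Without it 4 of the 18 genes rose.

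Checkpoint, cohesin and translesion genes had 0 rises and 0 falls in the fit without a replicate block, among 14, 11 and 12 tested genes. The closest was RAD53, the effector kinase of the checkpoint, with 42.5, 59.1 and 73.6 CPM after DSB induction and 35.5, 41.6 and 41.4 CPM before it, a log2 fold change of 0.55 ± 0.16 (adjusted p = 0.0621, edgeR). With a replicate block RAD53 (adjusted p = 0.0202, edgeR) and UBC13 (0.0312), a ubiquitin-conjugating enzyme of damage tolerance, rose, and RAD53 also did without replicate 1 after DSB induction (0.00254). POL30, the replication clamp on the translesion list, was lower without replicate 3 after DSB induction (adjusted p = 0.0475, edgeR). ECO1, the cohesin acetyltransferase, had 46.1, 46.7 and 71.1 CPM after and 43.4, 44.2 and 48.2 CPM before, a change of 0.26 ± 0.15 (adjusted p = 0.345, edgeR). The excess of ECO1 after DSB induction lay mainly in replicate 3. Among 20 genes of transcription coactivators 0 passed in either direction.

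The remaining lists had few calls, where 3.68% of all tested genes rose and 2.65% fell. Proteasome genes had 2 rises among 33 (6.06%) and 0 falls, and 6 rises without replicate 3 after DSB induction. PRE2, a catalytic subunit of the core particle, was one of the 2. Purine synthesis had 2 rises and 1 fall among 20, the rises being ADE17 and GCV1 and the fall IMD3, an IMP dehydrogenase with close paralogs. Of 25 cell wall genes PIR3 and CWP1, both mannoproteins of the wall, rose, and RLM1, a transcription factor of wall stress, fell. MIG2 was the single fall among 18 genes of glucose repression and DSE2, a daughter-cell glucanase, the single rise among 13 genes of the M to G1 interval. Subunits of RNA polymerases I and III had 1 fall among 18, both with and without a replicate block, although the gene was RPA34 with the block and RPA43 without it. Of the genes named here outside the glucose list, PIR3 kept its call when any 1 library was left out, and the others lost theirs without at least 1 library before DSB induction. In gluconeogenesis and the glyoxylate cycle (17 tested), copper and iron uptake (20) and mating loci with SIR silencing (9), 0 passed in the fit without a replicate block, and with a replicate block the first of these had 2 rises and 1 fall, the second 2 falls and the last 1 fall.

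The same induction was followed in WT cells, where 394 genes rose (6.07%) and 408 fell (6.29%). Of the genes that rose in rad30Δ cells, 146 also rose in WT cells, which is 61.1% of the rad30Δ rises and 37.1% of the WT rises. Of those that fell, 87 fell in both strains, or 50.6% of the rad30Δ falls and 21.3% of the WT falls. In WT cells the median change was 0.42 over the rad30Δ rises and -0.31 over the rad30Δ falls, on the log2 scale. BDS1, a sulfatase, was the only gene called in opposite directions, with 0.31 in rad30Δ and -0.25 in WT cells. The 2 comparisons share no library, but they share the estimate of spread.

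A test of the strain difference itself, the change in rad30Δ cells minus that in WT cells, found 0 genes higher and 4 lower (0.0616% of 6490) in edgeR, with 458 and 409 at an unadjusted p under 0.05. DESeq2 called 36 higher and 30 lower, a replicate block within each strain 11 and 8, and edgeR without replicate 3 after DSB induction in rad30Δ cells 76 and 65. The 4 genes were MF(ALPHA)2, STE3, SAG1 and LIF1, which are the α-cell genes above and the neighbour of one of them. MF(ALPHA)2 changed by -0.45 in WT cells, where it had 30.7, 27.0 and 27.0 CPM after and 42.9, 37.2 and 35.7 CPM before, and the difference between strains had an adjusted p of 8.23e-06 (edgeR). LIF1 changed by -1.71 in rad30Δ and by -0.17 in WT cells, with an adjusted p of 5.09e-05 for the difference (edgeR). As the 2 strains differ in mating type by their markers, the parts of RAD30 and of mating type in these 4 differences cannot be told apart.

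**Figure D4:**
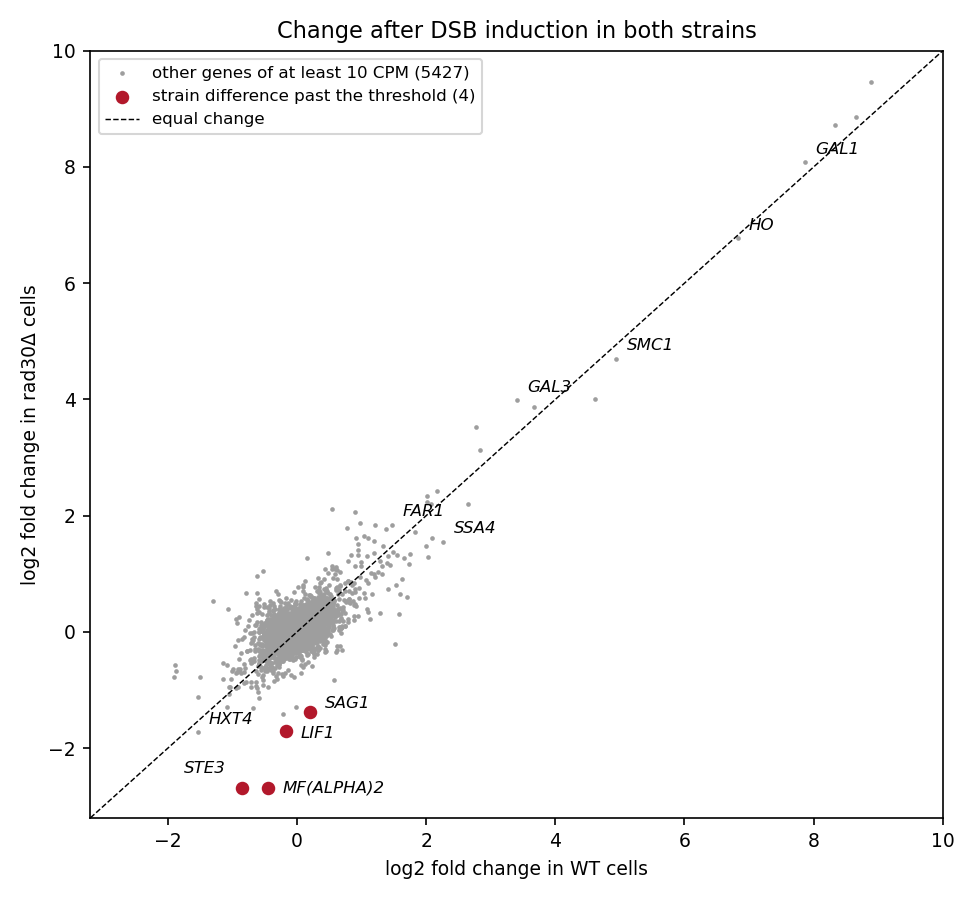
Log2 fold change after DSB induction in rad30Δ cells (y axis) against that in WT cells (x axis) for genes averaging 10 CPM or more, with a dashed line of equal change. GAL1 and HO lie near the line, while the 4 genes whose strain difference passed, MF(ALPHA)2, STE3, SAG1 and LIF1, lie below it.

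The galactose genes, heat shock genes and FAR1 moved in both strains, and the strain differences of those tested below did not pass. The median of the galactose regulon was 2.87 in rad30Δ and 2.42 in WT cells on the log2 scale, and GAL7 changed by 9.46 in rad30Δ and 8.89 in WT cells (adjusted p of the difference = 0.635, edgeR). The heat shock list had 18 rises and a median of 0.62 in rad30Δ cells and 21 rises and a median of 0.91 in WT cells. SSE2 changed by 0.91 in rad30Δ and 1.62 in WT cells, with an adjusted p of 0.147 for the difference (edgeR). FAR1 changed by 1.84 in rad30Δ and 1.47 in WT cells (adjusted p of the difference = 0.153, edgeR).

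Replicate 3 after DSB induction in rad30Δ cells differed from the other 2 in many genes. Of 5431 genes averaging 10 CPM or more, 390 lay above both other replicates by more than 0.5 on the log2 scale and 53 below both. The same count gave 64 above and 172 below for replicate 1 and 17 and 28 for replicate 2, and no library of the other groups had more than 46 on either side. Of the 10 genes furthest above, 9 were encoded in the mitochondrial genome. AI2, from an intron of COX1, had 9.82, 15.2 and 155 CPM after DSB induction and 10.9, 10.4 and 26.5 CPM before it, and 21S_RRNA, the large mitochondrial ribosomal RNA, had 92.8, 142 and 954 CPM after and 132, 140 and 347 CPM before. The libraries numbered 3 were thus the highest of their group in both conditions. SPI1, a cell wall protein, was the nuclear gene among the 10, with 29.4, 29.0 and 99.9 CPM after and 31.7, 28.4 and 41.3 CPM before.

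**Figure D5:**
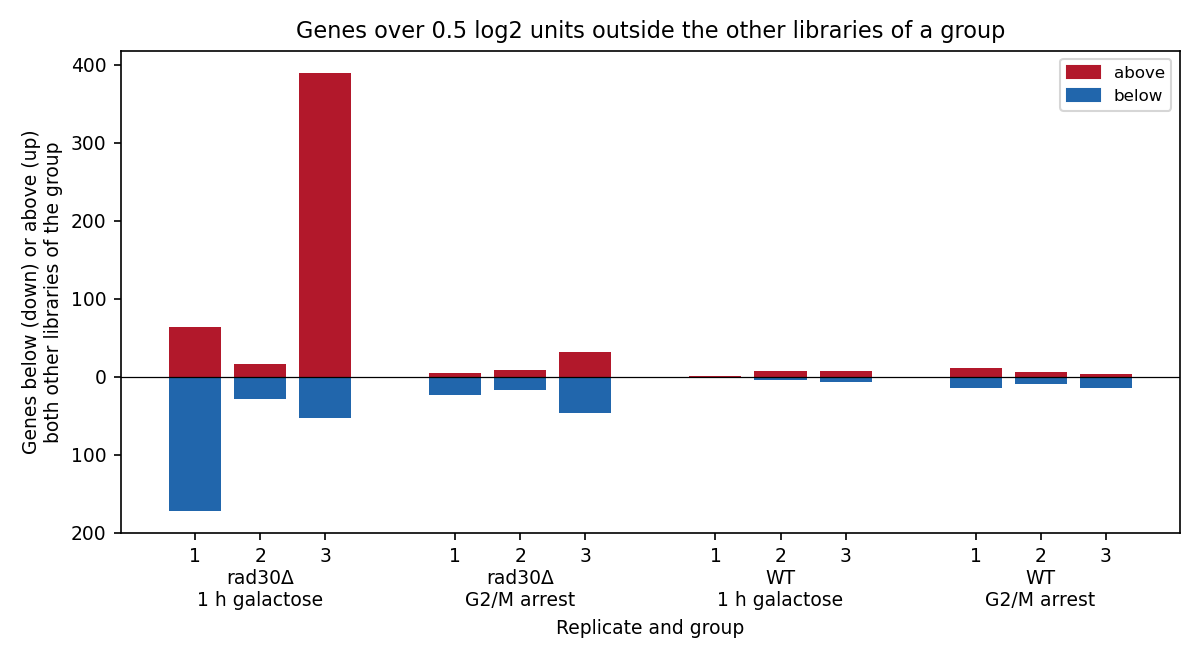
Number of genes above (up) and below (down) both other replicates of their group by more than 0.5 on the log2 scale, for each of the 12 libraries, among genes averaging 10 CPM or more in their strain (5431 in rad30Δ and 5436 in WT). Replicate 3 of rad30Δ cells after DSB induction has 390 genes above and replicate 1 of that group has 172 below.

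Nuclear genes of the mitochondrial ribosome were split by library in the same way. The 67 genes of the mitochondrial ribosome had a median of -0.225 and -0.276 in replicates 1 and 2 after DSB induction and 0.268 in replicate 3, relative to the libraries before it. In the fit without a replicate block 0 of 67 passed in either direction. Without replicate 3 after DSB induction 34 fell, and with both rad30Δ libraries numbered 3 left out 11 fell. Leaving out replicate 3 after DSB induction also gave 5 rises in the tricarboxylic acid cycle, 8 in amino acid synthesis and 6 in purine synthesis. The same setting gave 4 falls among hexose transporters and sensors, 5 in glucose repression, 3 in maltose use and 5 in ribosome biogenesis. The mitochondrial genome itself had 7 tested protein genes on its list, with 0 that passed and a summed level of 33.1, 48.1 and 383 CPM after and 42.6, 33.3 and 82.8 CPM before. The libraries were made from enriched mRNA, and how much of the mitochondrial RNA they recover was not tested.

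Below both other replicates, the leading genes of replicate 3 included DED1, an RNA helicase of translation initiation, with 291, 307 and 148 CPM after DSB induction and 305, 315 and 196 CPM before it. SPC24, a kinetochore protein, had 21.8, 19.4 and 9.34 CPM after and 13.9, 16.5 and 8.32 CPM before. Replicate 3 was again the lowest of both groups in these genes. YML045W, YML039W, YCL019W and YPR137C-B, retrotransposon genes of which the genome holds near-identical copies, and the paralogs FDH1 and FDH2, formate dehydrogenases, were in the same 10 and are uncertain for that reason. Correlations were taken across 5350 nuclear protein-coding genes with a position that averaged 10 CPM or more, so genes of the mitochondrial genome were left out. The deviation of replicate 3 from the mean of replicates 1 and 2 after DSB induction had r = 0.375 with the same deviation before it. Its r was 0.273 with expression level, 0.108 with GC content and -0.131 with gene length. These are descriptions over genes of the same libraries and carry no test.

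The median change in rad30Δ cells, with the 3 libraries of each group combined, had no order by gene length. Over 5 classes of 1174 genes, shortest first, the median log2 fold change was 0.008, 1.46e-05, 0.002, 0.027 and -0.013. Single libraries after DSB induction, relative to those before it, differed in direction. Replicate 3 fell from class to class, with 0.0707, 0.00103, -0.0198, -0.0222 and -0.0458. Replicate 1 had -0.0341, -0.0251, 0.00639, 0.022 and 0.00206. Replicate 2 had -0.0162, -0.00532, 0.00674, 0.0279 and 0.00501. Replicates 1 and 2 were thus lowest in the shortest genes. The genes that rose numbered 37, 51, 50, 65 and 32 and those that fell 23, 40, 34, 38 and 33. By GC content of the coding region, lowest first, 21, 32, 37, 62 and 83 genes rose and 20, 27, 39, 44 and 38 fell. The class of highest GC content had a median of 0.0444.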

How the data were processed

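Per the labels and the study's methods, the authors enriched mRNA, sequenced it as paired ends, trimmed it with cutadapt, aligned it to sacCer3 with HISAT2, dropped duplicates with Picard and assigned reads to genes with featureCounts, in versions not given in the sources used here. The deposited counts are whole numbers for 7123 genes in 12 libraries, and the 4 deposited tables of the authors' own comparisons (fold changes, p-values and group means) were not used apart from their column of gene lengths. The sources call the samples triplicates without saying that they are separate cultures, so p-values measure the spread between libraries. That spread was estimated for each gene over all 12 libraries, so the WT groups enter the p-values of the rad30Δ comparison.

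The 6490 genes holding 10 or more reads over the libraries were scaled by TMM and fitted over 12 libraries with 4 group means in edgeR 4.0.16 (R 4.3.3), SE being the log2 fold change divided by the root of F. Log2 CPM used a prior count of 2. On simulated counts with 100 genes changed by each of 1.5-fold and 2-fold in this comparison, 89% and 99% were recovered among 6466 genes, and 6.93% of calls were false. Each simulated gene had the same spread in all 12 libraries, whereas the real rad30Δ replicates after DSB induction lay further apart than those of other groups. These rates therefore do not describe the calls made on the real libraries. Names, positions and sequences came from RefSeq R64, to which 6088 identifiers matched.

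The members, the 41 gene lists, the comparisons and the alternatives were chosen with earlier results of these data known. Named genes were the 15 largest rises and falls among called genes that averaged at least 10 CPM and did not overlap, their neighbours, RAD30, HO, SMC1 and ADE3, all genes of lists no longer than 12, the 4 of smallest p in longer lists, the genes of the strain difference and the 10 genes on each side that led replicate 3. Other list members given here were chosen after their values were seen.

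Whether equal replicate numbers mark a shared culture is unknown, and a pairing of rad30Δ libraries by number was read from the data alone. The main fit had no replicate block, so its counts and p-values ignore this pairing. The pairing enters only the fits with a replicate block. Over 6490 genes, deviations from the group means had r = 0.194, 0.148 and 0.343 for libraries of equal number and at most 0.103 for unequal numbers. Alternatives were RLE and plain library totals, TMM without mitochondrial genes, filterByExpr and no filter, DESeq2 1.42.0, limma-voom 3.58.1 with sample quality weights, a replicate block within strain, the rad30Δ libraries alone, leaving out each library, and, chosen after seeing the data, both rad30Δ libraries numbered 3 left out and the longer promoter window.

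One gene is not reported here.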

Additional observations from a re-analysis of the deposited data

Results flagged for a closer look

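The change after DSB induction differed between rad30Δ and WT cells in 4 genes, by a test of the difference itself in edgeR. MF(ALPHA)2 differed by -2.24 on the log2 scale, STE3 by -1.84, SAG1 by -1.59 and LIF1 by -1.55, each as the change in rad30Δ minus the change in WT cells. All 4 were lower in 3 of 3 rad30Δ libraries after DSB induction than in any of the 3 before it. The same held for 10.5% of all tested genes and for all 172 genes that fell in rad30Δ cells. This separation therefore does not set the 4 genes apart from the other falls. In WT cells STE3, an α-cell gene, lay between 4.7 and 12.5 CPM, near the level at which few reads are counted. The part of mating type in these differences cannot be told apart from that of RAD30.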

How the results depend on the processing

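The counts of genes that passed depended on the processing more than the directions did. Scaling by library totals alone gave 159 higher and 401 lower, DESeq2 gave 360 higher, the rad30Δ libraries alone 76 higher and 32 lower, and these with a replicate block 86 and 46. Leaving out 1 library gave 141 to 379 higher and 77 to 324 lower, the smallest counts without a library before DSB induction and the largest without replicate 2 after it. Equal numbers were also fitted as pairs within strain: the replicate block gave 296 higher and 205 lower, and apart from the genes and lists given with their values above, IMP4, RPA43, RPN11 and STE4 were the named genes that lost their call. The strain difference gave 36 higher and 30 lower in DESeq2, 19 and 27 in limma-voom, 11 and 8 with the block, 40 and 36 with both rad30Δ libraries numbered 3 left out, and 0 to 76 and 4 to 65 when 1 library was left out, the most without replicate 3 after DSB induction in rad30Δ cells. The longer promoter window gave 2.98% of all genes, 9.79% of the rises, 64.3% of the largest rises and 83.3% of the galactose regulon. Of 110 named genes that passed, 51 passed in every setting and 0 changed sign. The cause of these differences was not tested. The settings with fewer libraries estimate the spread from fewer values. The fits over both strains also share 1 estimate of spread for each gene. Replicates lay 21.72 to 24.2 apart within the WT groups and 31.22 to 42.69 apart in rad30Δ cells after DSB induction. Depth limits genes of few reads: 3 reads were 0.399 to 0.584 CPM in the rad30Δ libraries.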
